A study of Mus musculus with 5 samples.

Results

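The 10 genes described here encode secreted proteins of mucosal and antimicrobial defence: Lcn2, Ltf, Pigr, Slpi, Sftpd, Chil1, Lyz2, S100a8, S100a9 and Camp. They were the rows of the gene count table carrying those names, 10 of 28666 listed genes, and were chosen with earlier results of these same libraries in view, including their fold changes. Their values in the comparison of the groups are therefore given as a description, with standard errors and no p-value. The libraries came from whole uteri of pseudopregnant ICR females aged 6 to 8 weeks that were caged with vasectomized C57BL/6 males, so that every female received seminal plasma (SP) without sperm. In the aged-SP group (n = 2 libraries, replicates 1 and 4) the males were 12 to 18 months old, whereas males of 12 to 14 weeks served for young-SP (n = 3, replicates 1, 2 and 4). The labels place collection 3.5 days after caging, whereas the methods give 3.0 days post coitum. No group without SP was analysed here, and the labels do not say that each library is a separate female. The errors below therefore concern the spread between libraries, as edgeR estimates it with information shared across genes.

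Secreted defence proteins are made by the luminal and glandular epithelium of the uterus and by leukocytes that enter it. Lipocalin 2 (Lcn2) binds bacterial siderophores and lactotransferrin (Ltf, also called lactoferrin) binds iron itself, which keeps the metal from microbes, and Ltf is a classical estrogen-induced gene of the mouse uterine epithelium. The polymeric immunoglobulin receptor (Pigr) carries dimeric IgA across epithelium, SLPI (Slpi) inhibits leukocyte serine proteases, surfactant protein D (Sftpd) is a collectin that recognizes microbial sugars, and CHI3L1 (Chil1) is a chitinase-like lectin without chitinase activity. Lysozyme 2 (Lyz2), the calprotectin subunits S100a8 and S100a9 and cathelicidin (Camp) are products of macrophages and neutrophils.

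The stretches before a RefSeq start site of these genes were read from RefSeq (GRCm38.p6), whose promoter table matched 9 of the 10 genes by symbol. Sftpd was the gene without an entry. Sequences are shown for 2 genes of each kind of result, with a match to the C/EBP letters TTGCNNAA on either strand in capitals (Ltf and S100a9) and without any match to the motifs searched (Pigr and Chil1). C/EBP factors are known as regulators of granulocyte and acute-phase genes.
Ltf, 9:111019042-111019270, + strand: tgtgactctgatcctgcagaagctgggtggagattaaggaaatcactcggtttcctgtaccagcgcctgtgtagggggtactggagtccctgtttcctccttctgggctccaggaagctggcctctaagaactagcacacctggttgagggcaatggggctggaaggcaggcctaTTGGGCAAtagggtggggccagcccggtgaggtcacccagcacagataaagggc
S100a9, 3:90695722-90695971, - strand: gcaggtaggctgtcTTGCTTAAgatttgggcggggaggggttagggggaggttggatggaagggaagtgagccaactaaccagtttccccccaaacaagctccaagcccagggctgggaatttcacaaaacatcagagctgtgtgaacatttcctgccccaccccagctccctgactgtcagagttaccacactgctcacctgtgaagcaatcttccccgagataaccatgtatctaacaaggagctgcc
Pigr, 1:130826434-130826683, + strand: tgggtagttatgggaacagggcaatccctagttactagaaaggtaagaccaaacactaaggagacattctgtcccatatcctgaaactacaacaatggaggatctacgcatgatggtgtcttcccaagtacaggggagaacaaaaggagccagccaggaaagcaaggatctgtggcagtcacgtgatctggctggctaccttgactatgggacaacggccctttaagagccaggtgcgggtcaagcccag
Chil1, 1:134181906-134182155, + strand: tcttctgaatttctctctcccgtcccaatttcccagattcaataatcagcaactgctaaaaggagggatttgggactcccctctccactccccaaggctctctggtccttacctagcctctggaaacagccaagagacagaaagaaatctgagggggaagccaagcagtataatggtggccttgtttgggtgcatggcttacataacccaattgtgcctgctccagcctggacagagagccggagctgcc
The match lay 75 to 68 bases before the RefSeq start of Ltf and 236 to 229 bases before that of S100a9. The RefSeq start of Ltf lies within the annotated span of the gene. The 21 bases of annotated exon before that start were left out of the printed stretch. Lcn2 (TTGCTCAA, 216 to 209 bases before the start) and Slpi (TTGAGCAA, 241 to 234 bases) also held it. The Slpi stretch lies within the annotated span of the gene, and so does that of Lcn2, where 197 of the 250 bases are annotated exon and the match falls in them. In all, 4 of 9 members had the C/EBP letters within 250 bases, as did 9.57% of 32817 promoters of the same length. The PU.1 letters GAGGAAG were found in Lcn2 and S100a8 (10.6% of all promoters) and the TATA box letters TATAAA in S100a8 alone (12.4%). None of the 9 held the NF-kB letters (GGG, any 3 letters and TTCC, 4.65% of all promoters), the STAT letters (TTC, any 3 letters and GAA, 7.01%) or those of the estrogen response element (GGTCA, any 3 letters and TGACC, 0.0640%). All motifs were searched on both strands, and a match is a description of letters only.

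Each library held between 15071914 and 16728601 counts, and all 10 pairs of libraries differed by more than sampling noise. On the leading principal component of the 500 most variable genes, which held 66.2% of their variance, young-SP replicate 1 (score -9.43) lay between the aged-SP libraries (-43.7 and -25.5) and the other young-SP libraries (41.9 and 36.6). On the next component (15.7%) it stood apart from both groups, at -30.7 against 12.8 and 7.39 for aged-SP and 13.7 and -3.16 for the other young-SP libraries. Young-SP replicate 1 was at least 10 times as high as both other young-SP libraries in 63 of 17013 tested genes (0.370%), against 6 genes (0.0353%) for young-SP replicate 2 and 1 gene (0.00588%) for replicate 4. The members' fold changes and the counts of called genes are given with and without this library. Pgr and Esr1, the progesterone and estrogen receptors, were at 200 to 288 and 310.5 to 419 CPM (counts scaled to library size with the trimmed mean of M-values). The epithelial marker Epcam was at 76.6 to 281 CPM. Of the oviduct markers, Ovgp1 was at 50.3 and 119 CPM in the aged-SP libraries and 65.9, 35.1 and 233 CPM in young-SP replicates 1, 2 and 4. Tppp3 was at 54.9 to 142 CPM, Pax2 at 22.3 to 27.9, Foxj1 at 0.828 to 2.48 and Dynlrb2 at most at 0.192. The part of oviduct tissue in the libraries was not tested. The basal squamous marker Krt5 stayed at or below 0.334 CPM and the alveolar marker Sftpc had 1 count in aged-SP replicate 1 and none elsewhere.

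Together the 10 genes took 0.666% and 0.724% of all counts in aged-SP replicates 1 and 4 and 0.702% in young-SP replicate 1, but 0.0638% and 0.122% in young-SP replicates 2 and 4. The spread thus ran through the young-SP group rather than between the groups. On the length-corrected scale (FPKM), Ltf was the most abundant of the 10 in both aged-SP libraries and in young-SP replicate 1, at 776, 1252 and 1045 FPKM, whereas Lyz2 was the most abundant in young-SP replicates 2 and 4, at 423 and 570.5 FPKM. Across genes, 5 of the 10 were highest in aged-SP replicate 1, 2 in aged-SP replicate 4 and 3 in young-SP replicate 1, among the last Camp on 2 reads. These libraries were the highest for 22.8%, 21.1% and 20.6% of all tested genes. Of the 9 members that passed the filter on low counts, 7 were lowest in young-SP replicate 2 and 2 in aged-SP replicate 4. Of all tested genes, 19.7% and 19.1% were lowest there.

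**Figure D1:**
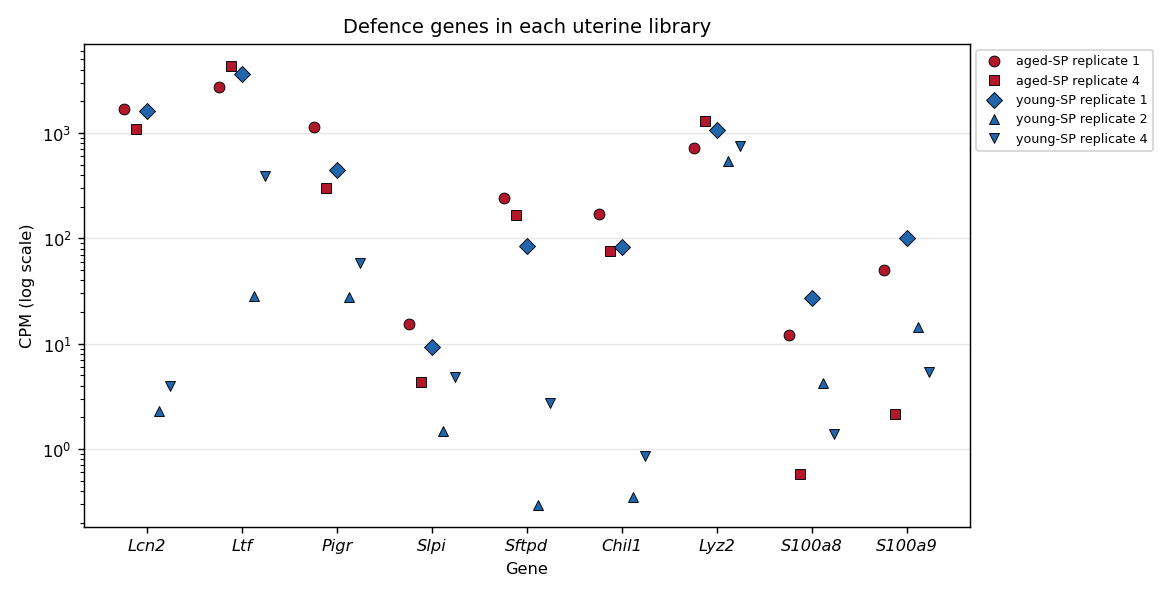
CPM on a log axis for the 9 tested genes, 1 point per library, with aged-SP in red and young-SP in blue. For Lcn2, Sftpd and Chil1 young-SP replicate 1 (diamond) sits beside the aged-SP libraries and far above the other 2 young-SP libraries, whereas Lyz2 spans only 545 to 1290 CPM and the S100 genes are lowest in aged-SP replicate 4.

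Of the iron-withholding proteins, Lcn2 (ENSMUSG00000026822, 2:32384633-32388252 on the - strand) stood at 1673 and 1085 CPM in aged-SP replicates 1 and 4, and at 1634, 2.31 and 4.01 CPM in young-SP replicates 1, 2 and 4. The groups overlapped, because young-SP replicate 1 was 408 times the next young-SP library and 118% of the aged-SP mean. Raw counts in the same order were 27669, 16972, 26126, 39 and 60, so the low values rest on few reads out of libraries of like depth. The edgeR log2 fold change, aged-SP over young-SP, was 1.33 ± 2.35 (SE). Without young-SP replicate 1 it was 8.76 ± 0.43.

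Ltf (ENSMUSG00000032496, 9:111019271-111042767, + strand) was at 2708 and 4330 CPM in the aged-SP libraries and at 3632, 28.3 and 394 CPM in young-SP replicates 1, 2 and 4. Young-SP replicate 1 lay between the aged-SP values and was 9.21 times the next young-SP library, which in turn was 13.95 times the lowest, so that no pair of young-SP libraries was alike. The log2 fold change was 1.38 ± 1.59, and 4.04 ± 1.22 without young-SP replicate 1. Esr1, the receptor through which estrogen induces Ltf, ranged from 310.5 to 419 CPM over all 5 libraries, and its log2 fold change of 0.28 ± 0.10 did not pass the test (edgeR adjusted p = 0.229).

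Pigr (ENSMUSG00000026417, 1:130826684-130852249, + strand), the IgA transporter, showed 1143 and 301 CPM in the aged-SP group against 445, 27.8 and 57.9 CPM in the young-SP group. Here the aged-SP libraries themselves differed 3.80 times, and young-SP replicate 1 fell between them. The log2 fold change was 2.03 ± 1.23, and 4.06 ± 0.77 without young-SP replicate 1. The cargo of the receptor had another order of libraries. Jchain, which joins IgA into dimers, was at 18.7 and 36.1 CPM with aged SP and at 12.4, 67.3 and 39.3 CPM with young SP, and the IgA heavy chain gene Igha at 38.6, 77.8, 10.1, 131 and 72.4 CPM in the same order. Both were thus lowest in young-SP replicate 1 and highest in young-SP replicate 2, the reverse of Pigr within the young-SP group, and neither differed between the groups by test (edgeR adjusted p = 0.714 and 0.894).

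The innate lectins resembled Lcn2. Sftpd (ENSMUSG00000021795, 14:41172214-41185149, - strand) had 239 and 167 CPM in the aged-SP libraries and 84.9, 0.296 and 2.74 CPM in young-SP replicates 1, 2 and 4, with only 5 reads in young-SP replicate 2. It was the single member whose groups did not overlap, although young-SP replicate 1 was 31.0 times the next young-SP library. Across all tested genes, 38.8% had no overlap between the groups, 19.5% with aged-SP higher, so nothing is read from this. Its log2 fold change was 2.79 ± 1.72, and 7.09 ± 0.74 without young-SP replicate 1. Chil1 (ENSMUSG00000064246, 1:134182176-134190181, + strand) was at 169 and 76.5 CPM against 82.0, 0.355 and 0.868 CPM. Young-SP replicate 1 was above aged-SP replicate 4 and 94.5 times the next young-SP library. The log2 fold change was 2.15 ± 1.81 with all libraries and 7.65 ± 0.63 without young-SP replicate 1. Among the partners of these lectins, Tlr4, a receptor named for SP-D and S100A8/A9, was at 89.9 and 65.2 CPM against 48.9, 30.6 and 40.1 CPM with no overlap (log2 fold change 0.96 ± 0.23, edgeR adjusted p = 0.131), and Il13ra2, a receptor of CHI3L1, was at 14.3 and 5.31 CPM against 67.6, 25.5 and 39.9 CPM (-2.18 ± 0.59, edgeR adjusted p = 0.153).

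Slpi (ENSMUSG00000017002, 2:164354070-164389095, - strand), the protease inhibitor, was far less abundant, with 15.3 and 4.35 CPM in the aged-SP group and 9.38, 1.48 and 4.81 CPM in the young-SP group. Aged-SP replicate 4 lay below young-SP replicate 4, and the log2 fold change of 0.91 ± 0.83 became -0.26 when aged-SP replicate 1 was left out. An annotated microRNA, Mir7678, lies on the same strand within an exon of Slpi, so reads of both may not be separable in the counts. Its neutrophil protease targets were nearly absent, Elane with counts in young-SP replicate 1 alone (0.188 CPM) and Ctsg at 0.296 to 1.41 CPM.

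Among the products of macrophages and neutrophils, Lyz2 (ENSMUSG00000069516, 10:117277331-117282321, - strand) had the narrowest range of the 10, with 723 and 1290 CPM in the aged-SP group and 1060, 545 and 755 CPM in the young-SP group. The groups overlapped, and the log2 fold change of 0.35 ± 0.35 became -0.12 without aged-SP replicate 4. A share of 15.4% of its 50-base stretches is identical to Lyz1, so a part of its reads may have been lost or divided, and Lyz1 itself was at 34.5 and 36.9 CPM against 36.8, 11.4 and 18.4 CPM. The summed CPM of 12 macrophage markers had the same order of libraries as Lyz2 except at the top, with 685 and 1083 in the aged-SP group and 1134, 538 and 779 with young SP. The part of macrophage number in the Lyz2 values was not tested. In whole-tissue RNA, fewer cells of a type and less RNA per cell cannot be told apart.

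S100a8 (ENSMUSG00000056054, 3:90668978-90670035, + strand) was at 12.1 and 0.576 CPM in the aged-SP libraries and at 26.9, 4.26 and 1.40 CPM in the young-SP libraries. S100a9 (ENSMUSG00000056071, 3:90692632-90695721, - strand), its partner in calprotectin, was at 50.1 and 2.17 CPM against 102, 14.5 and 5.34 CPM. For both, young-SP replicate 1 was highest and aged-SP replicate 4 lowest, and the level in aged-SP replicate 4 was 0.0476 and 0.0434 of that in aged-SP replicate 1. The ratio of S100a9 to S100a8 on the FPKM scale stayed between 4.54 and 5.51 in the 5 libraries while each gene spanned 46.7 and 46.8 times, respectively. Their log2 fold changes, -0.77 ± 1.52 and -0.63 ± 1.56, were the only negative ones among the 9 tested genes. They became 1.15 and 1.38 without young-SP replicate 1, 0.15 and 0.30 without aged-SP replicate 4, and -4.22 for both genes without aged-SP replicate 1.

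Neutrophils are the usual source of calprotectin. The defining marker Ly6g was at 0.544 and 1.22 CPM in aged-SP replicates 1 and 4 and at 0.813, 0.177 and 0.200 CPM in young-SP replicates 1, 2 and 4. It was thus highest in aged-SP replicate 4, where S100a8 and S100a9 were lowest, though on only 19 reads. Camp (ENSMUSG00000038357, 9:109847379-109849617, - strand), a neutrophil granule gene, had 1, 1, 2, 1 and 0 reads in the order aged-SP replicates 1 and 4 and young-SP replicates 1, 2 and 4. Camp did not pass the filter and has no fold change here. A count of 0 in young-SP replicate 4 allows up to 0.200 CPM (3 counts), counting error only. Camp was thus at or near 0 in every library. The 16 neutrophil markers summed to 96.4 and 63.3 CPM in the aged-SP group and to 176, 65.9 and 57.5 CPM in the young-SP group. Of the 16, 9 were highest in young-SP replicate 1 and 2 were lowest there, and the following were picked after their values were seen. The receptors Csf3r (21.8, 15.5, 78.7, 13.005 and 10.9 CPM) and Cxcr2 (7.25, 0.959, 33.2, 5.02 and 2.203 CPM) were highest in young-SP replicate 1, like S100a8 and S100a9, whereas those lowest there were Retnlg (15.1, 8.95, 8.63, 18.4 and 15.3 CPM) and Mpo (3.08, 2.56, 1.69, 2.78 and 3.07 CPM). Their part in the S100a8 and S100a9 values was not tested. Of the 15 tested neutrophil markers edgeR called 0 between the groups (1 higher at an unadjusted p under 0.05) and DESeq2 1 higher.

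**Figure D2:**
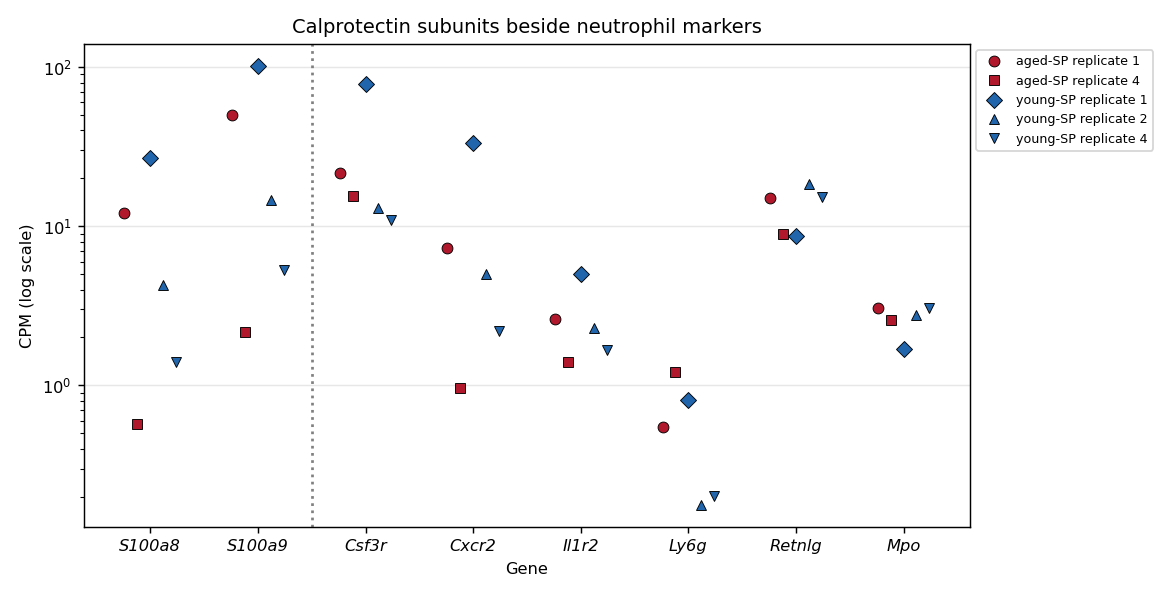
CPM on a log axis for S100a8 and S100a9 (left of the dotted line) and 6 neutrophil markers, 1 point per library, aged-SP in red and young-SP in blue. S100a8, S100a9, Csf3r, Cxcr2 and Il1r2 are highest in young-SP replicate 1 (diamond), whereas Retnlg and Mpo are lowest there and Ly6g never exceeds 1.22 CPM.

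Between the groups, none of the 9 tested members was called higher or lower by edgeR (adjusted p under 0.05 and absolute log2 fold change over 1), none had an unadjusted p under 0.05, and none was called by DESeq2 or limma-voom. Over all 17013 tested genes 0.147% were called by edgeR (0.0823% higher and 0.0647% lower in aged-SP), 0.159% by limma-voom and, of those with an adjusted p, 3.60% by DESeq2, and 19.0% had an unadjusted p under 0.05. Because the members were chosen on this comparison, nothing is read from these counts. Of the log2 fold changes, 7 were positive and 2 negative, with a median of 1.33 beside 0.0072 over all tested genes, of which 50.9% were positive. The biological coefficient of variation, the spread between libraries within groups, ranged from 30.9% for Lyz2 to 151% for Lcn2, and in 8 of the 9 it was above the 95th percentile of all genes (50.3%, median 19.6%). limma-voom, which averages logarithms of the values rather than the values themselves, put the log2 fold changes of Lcn2, Sftpd and Chil1 at 5.77, 5.59 and 5.23 and the median at 2.71.

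Without young-SP replicate 1 all 9 log2 fold changes were positive, their median was 4.04, and 3 members met the call rule, Lcn2, Sftpd and Chil1, all higher in aged-SP, where 3.45% of all tested genes met it in either direction and 1.74% as higher. These members were chosen on the same libraries and the library was left out after it was seen to stand apart, so this count is a description and nothing is read from it. The same 3 genes were at least 10 times as high in young-SP replicate 1 as in both other young-SP libraries, a limit set after the values were seen and met by 0.370% of tested genes. DESeq2 gave these 3 no p-value, since a library passed its limit on Cook's distance (30.8), which measures how far a fit rests on a single library. The distances were 37.0, 32.0 and 33.9, each in young-SP replicate 1. Of the 15 genes with counts to which DESeq2 gave no p, 14 had their largest distance in that library.

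**Figure D3:**
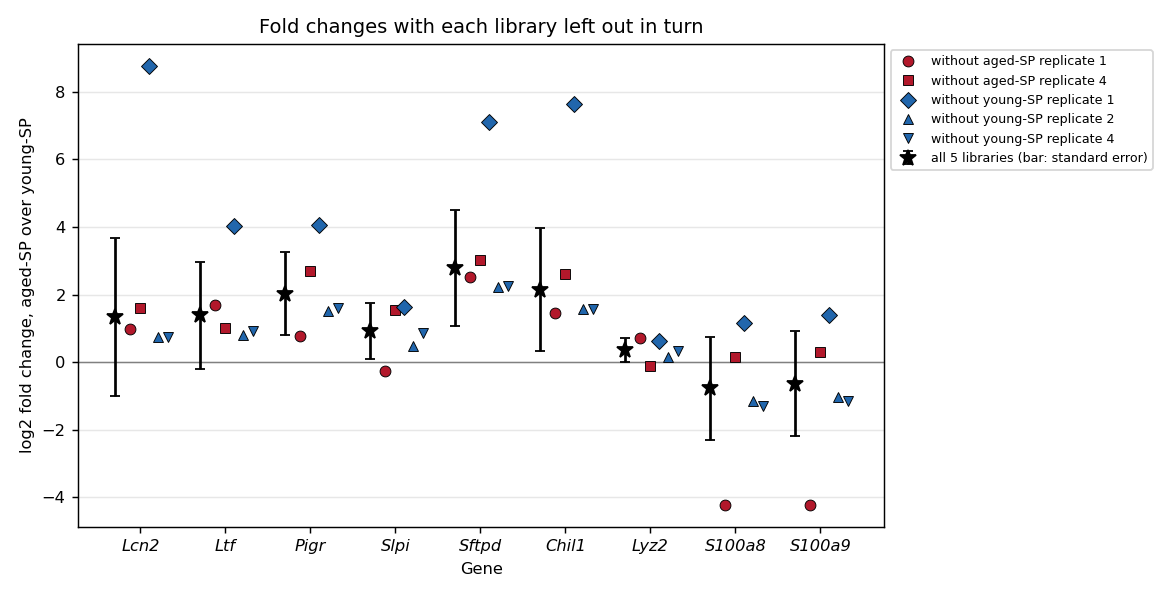
Log2 fold change, aged-SP over young-SP, for the 9 tested genes with all 5 libraries (star, with its standard error) and with each library left out in turn (coloured symbols named in the key). Leaving out young-SP replicate 1 (blue diamond) moves Lcn2 from 1.33 to 8.76, and leaving out aged-SP replicate 1 (red circle) moves S100a8 and S100a9 to -4.22.

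The wider set of defence genes comprised 212 other names in 8 lists, of which 140 were in the table and 88 were tested. None was called by edgeR with all libraries (15 higher and 6 lower at an unadjusted p under 0.05), and DESeq2 called 7 higher and 2 lower. Their median log2 fold change was 0.55, with 62 positive and 26 negative, and 27 (30.7%) had no overlap between the groups, 20 with aged-SP higher, beside 38.8% of all genes. Without young-SP replicate 1, 18 were called higher and 2 lower of 82 tested, 24.4% beside 3.45% of all genes. The lists were drawn up with the members' values known and are no independent evidence.

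**Figure D4:**
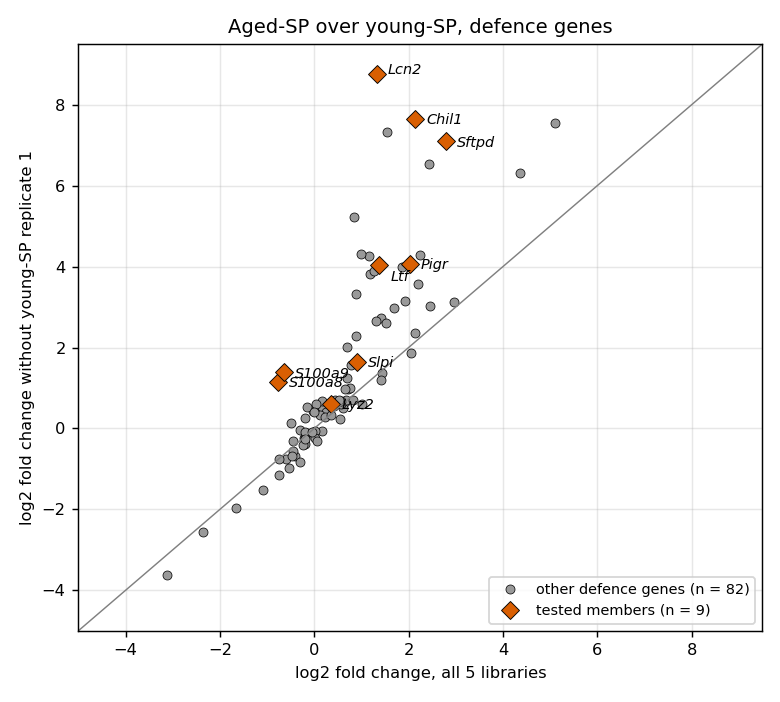
Log2 fold change, aged-SP over young-SP, with all 5 libraries (x axis) and without young-SP replicate 1 (y axis) for the 9 tested members (orange) and the 82 other defence genes tested in both fits (grey), with the line of equality. Lcn2, Sftpd and Chil1 lie far above the line, from 7.09 to 8.76 on the y axis, and a group of other defence genes lies above it too.

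In 7 of the 88 (7.95%, beside 0.370% of all genes), young-SP replicate 1 was at least 10 times both other young-SP libraries, and these genes were singled out after their values were seen. Muc4, a membrane mucin, was at 215 and 101 CPM in the aged-SP group and at 255, 2.66 and 5.74 CPM in the young-SP group. Ccl28, a chemokine that attracts IgA-secreting cells to mucosa, was at 272 and 80.3 CPM against 247, 7.63 and 10.1 CPM. Pglyrp1, a peptidoglycan recognition protein, was at 200 and 180 CPM against 234, 9.28 and 10.2 CPM. All 3 were highest or second highest in young-SP replicate 1, like Lcn2. Lpo (lactoperoxidase), Defb1 (a beta-defensin), Meltf (melanotransferrin) and Muc20 (a mucin) were the other 4. Defb1 was the only tested gene of 57 defensins and cathelicidins, of which 9 were in the table and 7 of these stayed under 10 counts in every library.

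By list, the mucosal barrier genes had the highest median among lists with more than 1 tested gene, 1.26 over 15 genes, of which 0 were called by edgeR (4 higher and 2 lower at an unadjusted p under 0.05) and 2 higher and 2 lower by DESeq2. Without young-SP replicate 1 the median was 2.29, and edgeR called 7 higher and 1 lower of 13. That library was left out after it was seen to stand apart. All values without it, here and in the lists below, including adjusted p-values, are therefore a description and nothing is read from them. Clu, a secreted chaperone, was at 1044 and 1654 CPM with aged SP and at 654, 86.0 and 139 CPM with young SP (log2 fold change 2.203 ± 0.87, edgeR adjusted p = 0.261, and 3.57 ± 0.35, edgeR adjusted p = 0.0183, without young-SP replicate 1). Muc16, a membrane mucin, was at 3.51 and 3.39 CPM against 5.82, 10.4 and 16.6 CPM (-1.66 ± 0.47, edgeR adjusted p = 0.163, and -1.98 ± 0.30, edgeR adjusted p = 0.0351, without young-SP replicate 1). The 10 other lipocalin and iron genes had a median of 0.79 and 9 positive values, with 0 called by edgeR (1 higher at an unadjusted p under 0.05) and 1 higher by DESeq2, and without young-SP replicate 1 a median of 2.36 and 4 called higher of 10. Haptoglobin (Hp) was at 42.7 and 42.3 CPM against 35.0, 4.85 and 7.94 CPM (log2 fold change 1.41 ± 0.81, edgeR adjusted p = 0.399, and 2.72 ± 0.26, edgeR adjusted p = 0.0183, without young-SP replicate 1). The 17 granule protein genes had a median of 0.43, with 0 called by edgeR (1 higher at an unadjusted p under 0.05) and 1 higher by DESeq2, and 3 called higher of 14 without young-SP replicate 1. Padi4, which citrullinates histones, was at 28.7 and 28.8 CPM against 25.9, 5.26 and 3.67 CPM (1.31 ± 0.82, edgeR adjusted p = 0.437, and 2.67 ± 0.22, edgeR adjusted p = 0.0134, without young-SP replicate 1). In both genes young-SP replicate 1 was again the young-SP library close to the aged-SP ones.

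Among the remaining lists, the 9 other S100 genes had a median of 0.02 (-0.10 without young-SP replicate 1), and S100a10 was at 221 and 199 CPM against 356, 348 and 357 CPM (log2 fold change -0.75 ± 0.09, edgeR adjusted p = 0.0674) with the 3 young-SP libraries alike. S100a11 was at 151 and 125 CPM against 98.9, 86.4 and 93.8 CPM (0.57 ± 0.12, edgeR adjusted p = 0.107). Of 10 tested genes of the lectin and lipid-binding list edgeR called 0 (3 higher and 1 lower at an unadjusted p under 0.05), DESeq2 1 higher, and edgeR without young-SP replicate 1 also 1 higher, with Retnla, which encodes a resistin-like secreted protein, at 44.2 and 49.6 CPM against 8.38, 17.8 and 7.61 CPM (2.05 ± 0.38, edgeR adjusted p = 0.0905). Of 13 RNases and oxidases edgeR called 0 (4 higher and 1 lower at an unadjusted p under 0.05), DESeq2 2 higher, and edgeR without young-SP replicate 1 called 2 higher and 1 lower, with Rnase4 at 229 and 251 CPM against 159, 134 and 157 CPM (0.68 ± 0.11, edgeR adjusted p = 0.0767) and Ear2 at 12.3 and 9.53 CPM against 3.82, 4.55 and 3.74 CPM (1.43 ± 0.21, edgeR adjusted p = 0.0734). The 15 genes of immunoglobulin transport and production had a median of -0.20, with 0 called by edgeR (1 higher at an unadjusted p under 0.05) or DESeq2 and 2 called higher without young-SP replicate 1.

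Among 21 tested receptors and binding partners of the members, edgeR called 1 lower, DESeq2 3 lower, and edgeR without young-SP replicate 1 called 2 lower of 20. Here too, calls and adjusted p-values without that library are a description, since it was left out after it was seen to stand apart. Anxa2, annexin A2, the partner of S100A10, fell from 530, 513 and 523 CPM in the young-SP libraries to 267 and 253 CPM in the aged-SP libraries (log2 fold change -1.004 ± 0.09, edgeR adjusted p = 0.0484), a call close to both thresholds that limma-voom also made and that held without young-SP replicate 1 but was lost when any of the other 4 libraries was left out. Lrp2 (megalin), an endocytic receptor for lipocalin 2, was at 24.8 and 17.3 CPM with aged SP and at 176, 362 and 554 CPM with young SP (-4.11 ± 0.57, edgeR adjusted p = 0.0734, and -4.46 ± 0.31, edgeR adjusted p = 0.0105, without young-SP replicate 1), and so lowest in the young-SP library in which Lcn2 was highest. The other lipocalin 2 receptor gene, Slc22a17, was at 25.7 and 24.2 CPM against 30.6, 37.3 and 33.3 CPM (-0.43 ± 0.13, edgeR adjusted p = 0.172). Fpr2, a neutrophil receptor for cathelicidin, was at 4.35 and 0.959 CPM against 4.44, 0.414 and 0.534 CPM. Of 31 regulators of such genes edgeR called 0 (8 higher and 0 lower at an unadjusted p under 0.05), DESeq2 1 higher, and edgeR without young-SP replicate 1 called 1 higher of 30, with a median of 0.47 and with Cebpb, which encodes a C/EBP factor, at 18.9 and 11.9 CPM against 9.01, 5.79 and 7.21 CPM (1.07 ± 0.29, edgeR adjusted p = 0.149).

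Markers of cell types moved with some of these values. The 12 markers of uterine epithelium summed to 1545 and 1612 CPM in the aged-SP group and to 1953, 1049 and 1272 CPM in the young-SP group, so young-SP replicate 1 was highest. Epcam itself was at 262 and 235 CPM against 281, 76.6 and 87.05 CPM, Krt18 at 228 and 216 CPM against 191, 157 and 165 CPM, and Cldn3 in the other direction, at 91.5 and 96.1 CPM against 179, 188 and 208 CPM (edgeR adjusted p = 0.0552). The 10 gland markers summed to 4281 and 3130 CPM against 1238, 695 and 856 CPM, led by the implantation serine proteases Prss28 (1446, 764, 90.7, 0.355 and 0.267 CPM) and Prss29 (2458, 2137, 385, 2.96 and 11.5 CPM). In both proteases young-SP replicate 1 stood above the other young-SP libraries, and they carried the sum. Of the 10 gland markers, 6 had negative log2 fold changes (median -0.49). The groups did not overlap in 7, beside 38.8% of all tested genes, and nothing is read from this count. In aged-SP 4 of these were lower, Calb1, Sox17, Cxcl15 and Ttr, and 3 were higher, Prss28, Prss29 and Spink1. Spink1 was at 153 and 12.2 CPM against 11.1, 10.8 and 7.74 CPM, and so high in aged-SP replicate 1 alone. Over the whole list DESeq2 called 3 lower, limma-voom called 1 and edgeR called 0 (1 higher and 4 lower at an unadjusted p under 0.05). Calb1, a calcium-binding protein picked after its values were seen, was at 102 and 60.2 CPM against 519.8, 399 and 558 CPM (-2.60 ± 0.29, edgeR adjusted p = 0.0598). The gland transcription factor Foxa2, looked at after its values were seen, was at 8.51 to 14.1 CPM and lowest in young-SP replicate 1. The 7 leukocyte markers summed to 450 and 474 CPM against 625, 430 and 427 CPM, with Ptprc at 74.4 to 124 CPM, and Adgre1, a macrophage marker, at 47.4 to 106 CPM. The squamous markers summed to 10.2 to 21.03 CPM. Of the lung markers, Napsa alone was high, at 153 CPM in aged-SP replicate 1 and 5.38 to 15.3 CPM elsewhere, while Sftpc, as given above, was at or near 0. The part of cell composition in the members' values was not tested.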

How the data were processed

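Uterine RNA was extracted with TRIzol, libraries were made with the NEBNext Ultra kit and sequenced on an Illumina HiSeq by the authors. They aligned reads with HISAT2 2.1.0 and counted reads per gene with HTSeq 0.6.0, and the submitters' processing notes also name Bowtie2 2.2.3, without its role. Whether counting used strand is not given in the sources used here. The deposited count table holds raw counts per gene, and the deposited FPKM values are per kilobase of gene and library size. Both carry GRCm38 positions, as all 10 members sit at their GENCODE M21 positions. The table also holds columns of the authors' own comparison (mean, fold change, p-values), which were not used. A young-SP sample that the authors excluded was not analysed here.

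Counts of 17013 genes that passed filterByExpr were fitted with edgeR 4.0.16 (R 4.3.3, quasi-likelihood test, two-sided, TMM factors 0.990 to 1.02), with Benjamini-Hochberg adjustment over all tested genes. CPM are TMM-scaled, and FPKM were used only to compare levels between genes. Genes were called at adjusted p under 0.05 and absolute log2 fold change over 1. The standard error of each edgeR log2 fold change was derived from that test. It is the absolute log2 fold change divided by the square root of the F statistic, and so restates the test. DESeq2 1.42.0, limma-voom (limma 3.58.1), other scalings and filters, a replicate block and leaving out each library were alternatives. On simulated data for this comparison (3 sets of 17013 genes, 200 changed in each), edgeR recovered 89% of genes changed by 2 on the log2 scale and 98.7% of those changed by 3, with 6.17% false calls. The changed genes were drawn at random from all but the low-expressed genes, each with its own spread. Of the 9 tested members, 8 lay above the 95th percentile of that spread, so these rates do not apply to those 8.

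The members and all lists were chosen with earlier results of these data known. Named besides the members are genes called by edgeR in each list, otherwise up to 3 with the largest change whose groups did not overlap (mean count 50 or more), direct partners of a member, defining cell markers and the oviduct markers. Lists whose calls are not given above (plasma and B cell, eosinophil, oviduct) had 0 genes called by edgeR with all libraries (2, 1 and 1 at an unadjusted p under 0.05), and DESeq2 called 1 plasma and B cell and 1 eosinophil marker higher, the latter also called by edgeR without young-SP replicate 1. Intervals and floors cover counting error only. Figures were drawn with matplotlib 3.10.9.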

Additional observations from a re-analysis of the deposited data

How the results depend on the processing

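The members' log2 fold changes were computed under 105 combinations of gene and alternative: 98 moved by less than the spread between libraries and 99 kept their sign, the exceptions being Slpi without aged-SP replicate 1 (-0.26), Lyz2 without aged-SP replicate 4 (-0.12), and S100a8 and S100a9 without aged-SP replicate 4 (0.15 and 0.30) or without young-SP replicate 1 (1.15 and 1.38). The spread used here, the pooled SD of log2 CPM within groups, was wide, at 0.52 for Lyz2, 4.27 for Lcn2 and 2.52 at the median of the members. A move as large as that of Ltf from 1.38 to 4.04 without young-SP replicate 1 thus counts among the 98. No scaling moved the median of all genes by more than 0.1. Against 25 genes called in all, DESeq2 called 632 and the fit with no filter on low counts 203, and leaving out each library gave 1 to 578, in detail 1 and 49 for aged-SP replicates 1 and 4 left out, and 578, 3 and 2 for young-SP replicates 1, 2 and 4. In simulated data DESeq2 made 20.5% false calls. Defence and partner genes called, 1 with all libraries, were 13 by DESeq2, 4 with no filter, and 0 to 23 over the libraries left out, with 23 of 132 (17.4%) without young-SP replicate 1 1 without aged-SP replicate 4 (not Anxa2) and 0 for each other library.

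Members called higher were 0 to 3 and their median log2 fold change 0.75 to 4.04 over the libraries left out, both highest for young-SP replicate 1. Members without overlap, 1 with all libraries, were 0 under a filter of at least 10 counts in every library, which drops Sftpd, and 1 to 5 over the libraries left out: 5 without aged-SP replicate 1 (61.1% of all genes), 5 without aged-SP replicate 4 (63.9%) and 5 without young-SP replicate 1 (55.4%).

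With the replicate number as a block, 2 genes were called in all and 0 defence and partner genes. The groups share only the numbers 1 and 4, whose libraries' deviations correlated at 0.152 and 0.136, and nothing in the labels says that a number marks a shared batch, so the block was not used. With 2 aged-SP libraries, a fit without either leaves a lone library assumed to vary like the young-SP group. The causes of these differences were not tested. Total counts were alike between libraries, so depth limits only Camp and the low values of Sftpd, Chil1 and S100a8.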
